A study of Mus musculus with 32 samples.

Results

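The chromodomain helicase DNA-binding (CHD) genes encode ATP-driven enzymes that move, space or evict nucleosomes and carry a pair of chromodomains. All 9 mouse members, Chd1 to Chd9, were followed across 32 RNA sequencing libraries of the embryonic mouse forebrain, by taking the row of each count file whose symbol was a member. These are 9 of 26331 named genes, and all 9 passed the filter on low counts in every model. Each library came from the dorsal telencephalon at E12.5 or the cortex at E15.5, where E stands for embryonic day. Homozygous Kat6b knockout (KO) and wild-type (WT) embryos on the C57BL/6 background gave 3 libraries per genotype at E12.5, from 2 litters, and 5 per genotype at E15.5, from 5 litters. Embryos with the Kat6b transgene, Tg(Kat6b), and their WT controls on a mixed FVBxBALB/c background gave 4 libraries per genotype and age. Kat6b encodes a histone acetyltransferase, and the study asked what its loss and its gain do to gene expression in the developing cortex. The labels give neither the part of Kat6b that the KO allele removes nor the promoter that drives the transgene, and they say that the transgenic mice did not live on an inbred background. Sequencing batch 1 held FVBxBALB/c libraries and batch 2 held C57BL/6 libraries, and background and batch cannot be told apart.

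The family falls into 3 subfamilies. CHD1 and CHD2 bind DNA directly and are known from transcribed chromatin. CHD3, CHD4 and CHD5 carry PHD fingers and are the alternative motor subunits of the nucleosome remodelling and deacetylase complex (NuRD), which couples remodelling to histone deacetylation. CHD6, CHD7, CHD8 and CHD9 form the remaining subfamily. In the developing mouse cortex, CHD4 is known for its part in progenitor proliferation, and CHD3 and CHD5 for neuronal migration. In humans, variants of CHD7 cause CHARGE syndrome, variants of CHD8 are linked to autism, and variants of CHD2 cause epilepsy.

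Named-gene totals ran from 10383066 to 49508669 counts per library, and each member had between 502 and 46252 counts in each library. Both C57BL/6 E15.5 replicates 5 had a column header for another sample (E12.5 replicate 2), and the label of KO replicate 5 gives dorsal telencephalon as its tissue. On the first principal component they lay at 57.5 (KO) and 57.7 (WT), where all E15.5 libraries lay between 41.1 and 59.9 and all E12.5 libraries between -89.4 and -41.3. The ribosomal RNA gene Rn45s took 17.8% of the counts in KO E15.5 replicate 3 and at most 0.667% elsewhere. Apart from that gene, KO E15.5 replicates 3 and 4 were the closest pair within any group: over 6546 genes with at least 500 counts in both, the spread of their log2 ratios (median absolute deviation, scaled to an SD) was 0.0749, against 0.0527 from sampling alone and at least 0.108 in every other pair. The labels give them as embryos of different litters. With the pair summed as 1 library, an alternative chosen after seeing the data, 0 members and 0 genes were called in KO against WT at E15.5. In that fit 7 members were called with age in KO, the same number as with the pair kept apart, where 56.4% of all genes were called. Markers of cortical neurons and apical progenitors were detected in every group, with none at 0. In the labelled KO, Kat6b stood at 190, 151 and 121 CPM (counts scaled to library size) at E12.5, against 193, 166 and 152 CPM in WT. At E15.5 it stood at 190, 178, 167, 153 and 185 CPM in the labelled KO, against 185, 171, 151, 191 and 156 CPM in WT. The groups overlapped at both ages, and the log2 fold changes of -0.16 ± 0.14 (SE) and 0.04 ± 0.11 were not called, so the gene total does not tell the labelled KO libraries from WT. In Tg(Kat6b), Kat6b was called higher, with log2 fold changes of 1.63 ± 0.13 at E12.5 and 1.86 ± 0.13 at E15.5.

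The genes lie on 8 chromosomes of the mm10 assembly (GRCm38), and Chd5 and Chd7 share chromosome 4. NuRD's motor genes are Chd3 at chr11:69343273-69369499 on the minus strand, Chd4 at chr6:125095980-125130591 on the plus strand, and Chd5 at chr4:152338646-152390194 on the plus strand. Chd1 is at chr17:15704967-15772612 (plus strand), Chd2 at chr7:73426652-73541746 (minus), Chd6 at chr2:160946978-161109086 (minus), Chd7 at chr4:8690402-8868449 (plus), Chd8 at chr14:52198151-52258042 (minus) and Chd9 at chr8:90828302-91054516 (plus). RefSeq promoter sequences of that build matched 5 of the 9 members. The 250 bases before the first listed start sites of Chd4 and Chd5 are shown because both genes encode motors of one complex and their RNA took different courses with age, as described below. Capitals mark the GC box, the letters GGGCGG on either strand.
Chd4 (chr6:125095731-125095980, plus strand): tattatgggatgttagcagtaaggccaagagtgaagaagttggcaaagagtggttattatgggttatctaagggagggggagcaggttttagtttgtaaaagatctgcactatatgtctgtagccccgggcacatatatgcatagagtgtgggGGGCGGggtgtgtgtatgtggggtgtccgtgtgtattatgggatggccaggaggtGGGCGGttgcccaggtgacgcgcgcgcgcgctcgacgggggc
Chd5 (chr4:152338401-152338650, plus strand): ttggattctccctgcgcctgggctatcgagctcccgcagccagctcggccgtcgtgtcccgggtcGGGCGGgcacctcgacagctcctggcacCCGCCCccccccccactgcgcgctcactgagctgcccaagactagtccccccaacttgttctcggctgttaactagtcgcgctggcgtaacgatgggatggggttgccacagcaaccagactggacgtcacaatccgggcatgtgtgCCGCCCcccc
The Chd4 window held 2 GC boxes and the Chd5 window 3, and 32.7% of 32851 RefSeq promoter windows of the same length held at least 1. Neither held CCAAT (in 33.8% of windows) or TATAAA (in 12.4%) on either strand, and each held 1 E-box, CANNTG (in 66.2%). The windows were 54% (Chd4) and 67.2% (Chd5) G or C, against a median of 52.4% over all windows. The window of another listed Chd4 start site (chr6:125095913-125096162) held 3 GC boxes and 1 CCAAT and was 67.6% G or C. That of another listed Chd5 start site (chr4:152338404-152338653) held 3 GC boxes and no CCAAT and was 68% G or C. The contrast between both genes thus depends on the start site taken.

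Levels between genes are given as RPKM, the CPM per kilobase of the gene length in the deposited files. Chd3 and Chd4 were by far the most abundant members in all 8 groups. Chd4 averaged 94.6 ± 7.24 RPKM (SD, n = 3) in KO and 101 ± 19.6 in WT at C57BL/6 E12.5, and 123 ± 14.3 in Tg(Kat6b) and 137 ± 19.5 in WT at FVBxBALB/c E12.5 (n = 4 each). Chd3 averaged 88.9 ± 9.83 RPKM in KO and 86.7 ± 9.23 in WT at C57BL/6 E12.5, so its libraries overlapped those of Chd4 there. In FVBxBALB/c at E12.5, Chd3 averaged 91.3 ± 9.11 RPKM in Tg(Kat6b) and 91.8 ± 12.9 in WT, with no library as high as the lowest Chd4 library of its group.

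At E15.5 the order of both was turned round. Chd3 reached 152 ± 12.4 RPKM in KO and 153 ± 10.7 in WT (n = 5 each), and 166 ± 5.19 in Tg(Kat6b) and 156 ± 8.25 in FVBxBALB/c WT (n = 4 each). Chd4 followed at 84.5 ± 3.63, 85.3 ± 7.33, 109 ± 6.66 and 101 ± 4.91 RPKM in the same 4 groups. Chd8 came next in all 4, between 26.0 and 28.9 RPKM on average, and no library overlapped between Chd3, Chd4, Chd8 and the remaining members. Below Chd8, neighbours in the order overlapped, with averages between 10.04 and 19.3 RPKM. At E12.5, Chd5 was the lowest member in all 4 groups, and its libraries did not overlap those of the next lowest, Chd9.

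**Figure D1:**
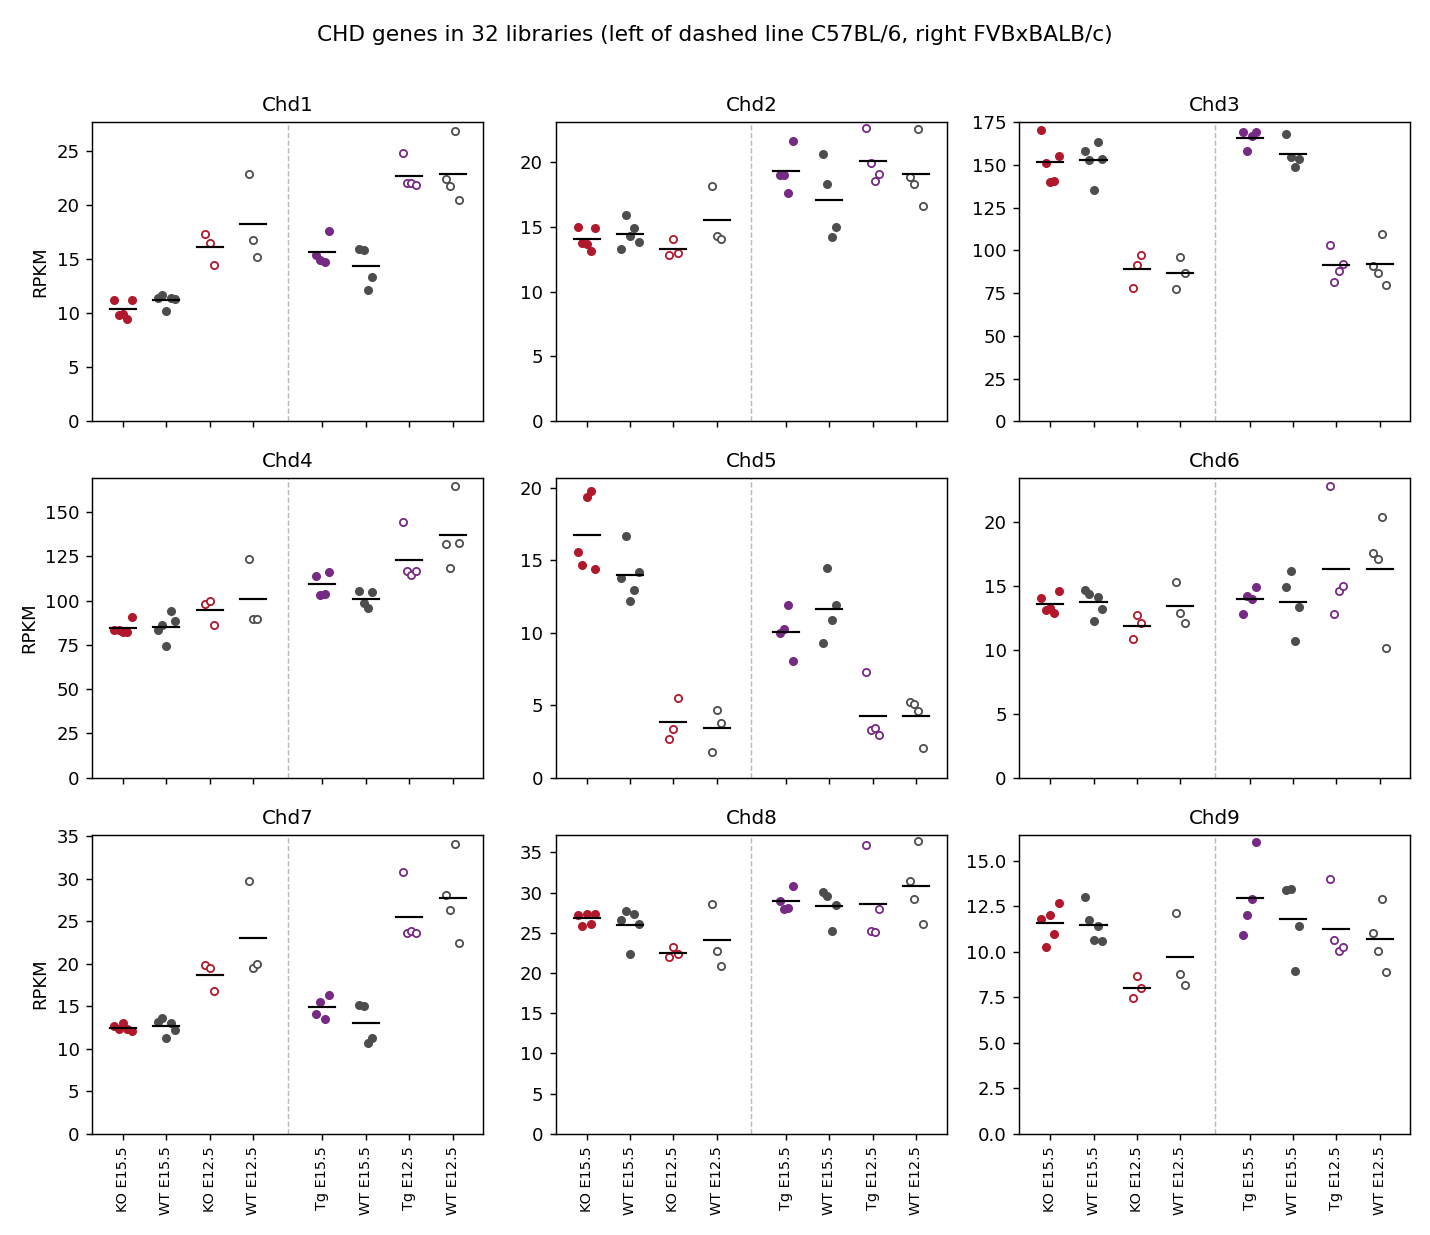
RPKM of each CHD gene (vertical axes from 0) in each library of the 8 groups; points are libraries, filled at E15.5 and open at E12.5, and bars are group means. Chd3 and Chd5 stand higher at E15.5 in every group and Chd1 and Chd7 lower, while genotypes overlap within each age except for Chd2 in C57BL/6 at E12.5.

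Age was set against the family in each genotype, comparing E15.5 cortex with E12.5 dorsal telencephalon. The tissues differ in the region dissected as well as in age, and in bulk tissue fewer cells of a type and less RNA per cell cannot be told apart. Over all genes, 56.4% were called (edgeR quasi-likelihood test, Benjamini-Hochberg adjusted p below 0.05) in labelled KO, 56.8% in C57BL/6 WT, 46.3% in Tg(Kat6b) and 50.1% in FVBxBALB/c WT. Of the 9 members, 7 were called in labelled KO, 4 in C57BL/6 WT, 4 in Tg(Kat6b) and 5 in FVBxBALB/c WT. In labelled KO 5 rose and 2 fell (29.4% and 27.0% of all genes), in C57BL/6 WT 2 and 2 (28.6% and 28.2%), in Tg(Kat6b) 2 and 2 (23.8% and 22.5%), and in FVBxBALB/c WT 2 and 3 (25.1% each). Chd3, Chd5, Chd1 and Chd7 were called in all 4 genotypes, each with libraries that did not overlap between ages, as was so for 54.6% of all genes in labelled KO, 51.8% in C57BL/6 WT, 43.2% in Tg(Kat6b) and 43.1% in FVBxBALB/c WT.

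Chd5, the neuronal NuRD motor, changed most. It had 15.54, 14.7, 19.4, 19.7 and 14.4 RPKM in the KO libraries at E15.5, against 2.64, 3.32 and 5.46 at E12.5. In C57BL/6 WT it had 13.7, 16.6, 12.2, 12.9 and 14.2 RPKM at E15.5, against 1.79, 4.69 and 3.73 at E12.5. Every E15.5 library of that background stood above every E12.5 library. The log2 fold changes were 2.17 ± 0.28 in KO (adjusted p = 1.28e-05) and 2.05 ± 0.28 in WT (adjusted p = 2.35e-05). In FVBxBALB/c, Tg(Kat6b) had 9.97, 10.3, 11.9 and 8.05 RPKM at E15.5, against 7.27, 3.30, 3.40 and 2.96 at E12.5. The WT controls had 9.31, 14.4, 10.8 and 11.9 RPKM at E15.5, against 5.23, 5.10, 4.60 and 2.05 at E12.5. Chd5 rose there by 1.25 ± 0.29 in Tg(Kat6b) and 1.46 ± 0.29 in WT on the log2 scale, and Tg(Kat6b) replicate 1 at E12.5 came closest to the E15.5 libraries. A larger absolute change than that of Chd5 was found in 9.82% of all genes in FVBxBALB/c WT, against 5.06% in C57BL/6 WT.

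Between the ages, Chd5 rose together with the summed CPM of 11 cortical neuron markers, but it did not follow that sum among the E15.5 libraries. The sum was 8353 to 9447 in KO and 8530 to 9207 in WT at C57BL/6 E15.5, against 3031 to 4142 in KO and 2927 to 4170 in WT at E12.5. In FVBxBALB/c it was 9243 to 10920 in Tg(Kat6b) and 9206 to 10490 in WT at E15.5, against 3546 to 5197 in Tg(Kat6b) and 2874 to 4524 in WT at E12.5. Among the E12.5 libraries, the highest neuron sum (5197) and the highest Chd5 were both in Tg(Kat6b) replicate 1. The lowest neuron sums, 2874 in FVBxBALB/c WT replicate 4 and 2927 in C57BL/6 WT replicate 1, belonged to the libraries with the lowest Chd5 of each background. At E12.5 the summed CPM of 8 ventral telencephalon and interneuron markers was also highest in Tg(Kat6b) replicate 1 (950). Its lowest values of each background at that age were in the same WT libraries, at 442 and 232.6. Tg(Kat6b) replicate 4 went the other way, with a ventral sum of 769.6 and the lowest Chd5 of its group. Among the E15.5 libraries, the highest neuron sum, 10920 in Tg(Kat6b) replicate 4, went with the lowest Chd5 level at that age, 8.05 RPKM. The highest Chd5 levels, 19.4 and 19.7 RPKM in KO replicates 3 and 4, went with neuron sums of 8547 and 8353. Median neuron sums were 9569 in Tg(Kat6b) and 9629 in its WT, against 8547 in KO and 8814 in its WT. Chd5 averaged 10.04 and 11.6 RPKM in the former groups, against 16.7 and 13.9 in the latter. The part of the neuron share or of ventral tissue in the levels and the change of Chd5 was not tested.

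**Figure D2:**
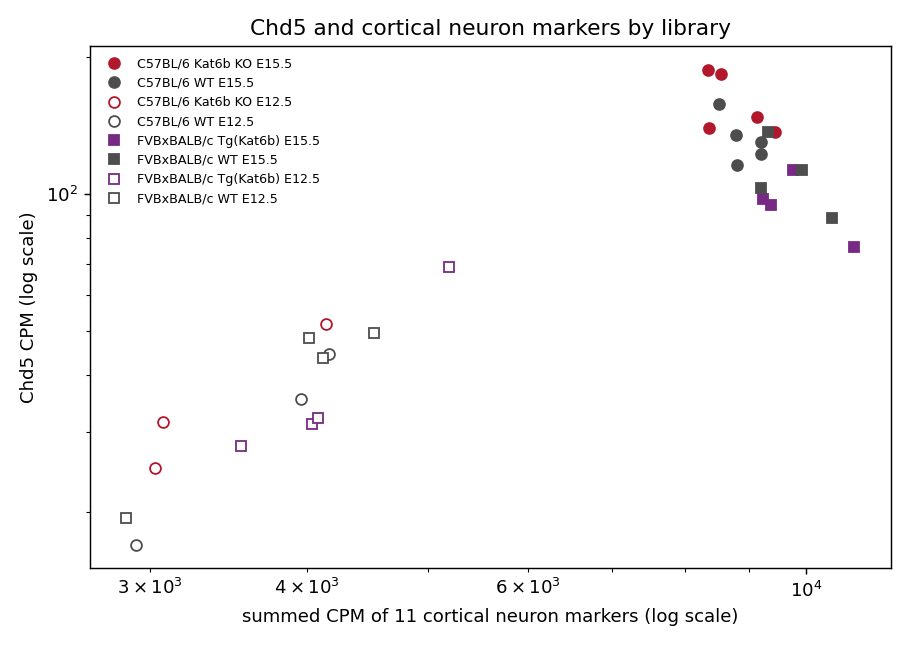
Chd5 CPM against the summed CPM of 11 cortical neuron markers, both on log scales, with 1 point per library, circles for C57BL/6 and squares for FVBxBALB/c. E12.5 libraries (open) run from 2874 to 5197 on the marker axis and E15.5 libraries (filled) from 8353 to 10920, with Chd5 higher in all E15.5 libraries.

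Chd3, the other NuRD motor that rose, stood at 170, 151, 140, 141 and 155 RPKM in KO at E15.5, against 77.9, 91.7 and 96.98 at E12.5. In C57BL/6 WT it stood at 158, 153, 135, 163 and 153 RPKM at E15.5, against 77.5, 96.0 and 86.7 at E12.5. All E15.5 libraries exceeded all E12.5 libraries. The log2 fold changes were 0.81 ± 0.10 in KO, 0.83 ± 0.10 in WT, 0.86 ± 0.10 in Tg(Kat6b) and 0.77 ± 0.10 in FVBxBALB/c WT, all called. Chd3os, the gene named as the opposite-strand partner of Chd3, had CPM at 5.61% to 12.1% of those of Chd3, and whether the counting used strand is not given in the sources used here.

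Chd4, the remaining motor, did not follow them. In FVBxBALB/c WT it fell to 106, 98.3, 95.6 and 105 RPKM at E15.5, against 132, 119, 165 and 133 at E12.5, a log2 fold change of -0.44 ± 0.10 (adjusted p = 0.00167) with no overlap. The values of -0.12 ± 0.10 in KO, -0.22 ± 0.10 in C57BL/6 WT and -0.17 ± 0.10 in Tg(Kat6b) were not called, with adjusted p of 0.314, 0.0701 and 0.184. Chd4 was called in C57BL/6 WT without E12.5 WT replicate 3 (-0.29, adjusted p = 0.0364) or 4 (-0.30, adjusted p = 0.0324). The ratio of Chd3 to Chd4, per kilobase, averaged 1.79 ± 0.14 in KO and 1.79 ± 0.07 in WT at C57BL/6 E15.5, against 0.95 ± 0.17 in KO and 0.89 ± 0.23 in WT at E12.5. In FVBxBALB/c it averaged 1.52 ± 0.07 in Tg(Kat6b) and 1.54 ± 0.06 in WT at E15.5, against 0.74 ± 0.04 in Tg(Kat6b) and 0.67 ± 0.05 in WT at E12.5. The lowest ratio of an E15.5 library was 1.46, and the highest of an E12.5 library was 1.12. The 3 motors took 74.0% of the summed RPKM of the family in KO and 73.8% in WT at C57BL/6 E15.5, against 67.4% in KO and 64.9% in WT at E12.5. Their shares in FVBxBALB/c were 73.0% in Tg(Kat6b) and 73.3% in WT at E15.5, against 63.8% in Tg(Kat6b) and 64.7% in WT at E12.5.

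**Figure D3:**
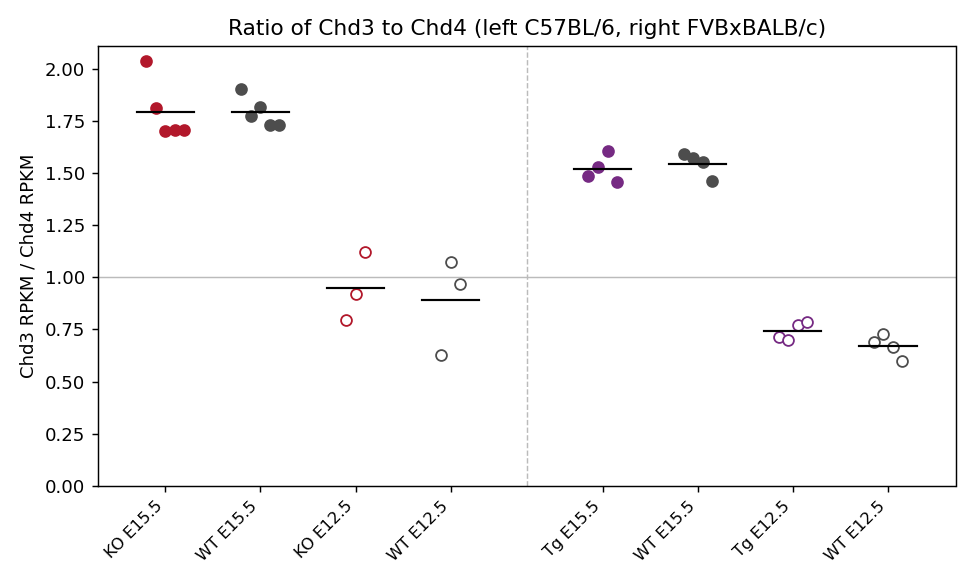
Ratio of Chd3 to Chd4 RPKM (vertical axis from 0) in each library by group; points are libraries, filled at E15.5 and open at E12.5, bars are group means and the grey line marks 1. E15.5 libraries lie between 1.46 and 2.04 and E12.5 libraries between 0.60 and 1.12.

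Chd1 and Chd7 were lower at E15.5 in every genotype. Chd7, whose human counterpart is the CHARGE syndrome gene, had 12.7, 12.3, 13.0, 12.4 and 12.1 RPKM in KO at E15.5, against 19.9, 19.5 and 16.8 at E12.5. In C57BL/6 WT it had 13.2, 13.6, 11.3, 13.0 and 12.2 RPKM at E15.5, against 29.7, 19.5 and 20.03 at E12.5. WT replicate 1 stood well above its group at E12.5. In FVBxBALB/c, Chd7 had 14.2, 15.51, 13.5 and 16.4 RPKM in Tg(Kat6b) at E15.5, against 30.8, 23.7, 23.9 and 23.6 at E12.5. The WT controls had 15.1, 14.997, 10.6 and 11.3 RPKM at E15.5, against 28.1, 26.4, 34.1 and 22.4 at E12.5. The log2 fold changes were -0.55 ± 0.11 in KO, -0.85 ± 0.11 in C57BL/6 WT, -0.77 ± 0.14 in Tg(Kat6b) and -1.09 ± 0.14 in FVBxBALB/c WT.

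Chd1, a remodeller of transcribed chromatin, averaged 10.4 ± 0.84 RPKM in KO and 11.2 ± 0.58 in WT at C57BL/6 E15.5, against 16.1 ± 1.47 in KO and 18.3 ± 4.04 in WT at E12.5. In FVBxBALB/c it averaged 15.7 ± 1.33 in Tg(Kat6b) and 14.3 ± 1.87 in WT at E15.5, against 22.7 ± 1.45 in Tg(Kat6b) and 22.9 ± 2.76 in WT at E12.5. The log2 fold changes were -0.60 ± 0.11 in KO, -0.69 ± 0.11 in C57BL/6 WT, -0.53 ± 0.10 in Tg(Kat6b) and -0.68 ± 0.10 in FVBxBALB/c WT. The summed CPM of 8 apical progenitor markers was lower at E15.5 as well, at 1789 to 1876 in KO and 1787 to 1957 in WT at C57BL/6 E15.5, against 2626 to 2871 in KO and 2559 to 3341 in WT at E12.5. In FVBxBALB/c that sum was 2306 to 2546 in Tg(Kat6b) and 2249 to 2534 in WT at E15.5, against 3198 to 3303 in Tg(Kat6b) and 3069 to 3453 in WT at E12.5. In each genotype 6 of the 8 were lower at E15.5, while Fabp7 and Slc1a3, which glia also express, were higher, at 490.8 and 172.3 CPM on average in C57BL/6 WT at E15.5, against 348.4 and 108.2 CPM at E12.5. The sum of 8 meningeal and mesenchymal markers was at most 179 CPM at E15.5, against at least 207.5 at E12.5, and that of 6 erythroid markers at most 165 against at least 1248. Cajal-Retzius markers summed to at least 257.8 CPM at E15.5, against at most 252.7 at E12.5. Of those 4 markers, Reln was higher at E15.5 in every genotype, at 303.6 against 94.26 CPM on average in C57BL/6 WT. Trp73 and Lhx5 were lower in every genotype, and Calb2 was lower in Tg(Kat6b) only. Markers of diencephalon, midbrain and hindbrain summed to at most 23.1 CPM at E15.5, against at least 24.2 at E12.5. Of those 7, only 2 or 3 averaged above 1 CPM in each group, Tal1 and Barhl2 among them. In C57BL/6 WT 3 of the 7 were higher at E15.5. The part of any of these in the changes with age was not tested.

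Chd2, Chd6, Chd8 and Chd9 were not called in C57BL/6 WT, Tg(Kat6b) or FVBxBALB/c WT. Chd9 rose in labelled KO by 0.56 ± 0.11 on the log2 scale (adjusted p = 0.000462), with 11.8, 10.3, 12.1, 10.97 and 12.7 RPKM at E15.5, against 7.45, 8.67 and 8.01 at E12.5. Chd8 and Chd6 rose there by 0.29 ± 0.09 (adjusted p = 0.0114) and 0.23 ± 0.08 (adjusted p = 0.0279). Chd6 lost its call without E12.5 KO replicate 1 (adjusted p = 0.157) or E15.5 KO replicates 1, 3 or 5, and without both replicates 5 (adjusted p = 0.0729). It also lost it with the replicate block across ages (adjusted p = 0.0769), which joins embryos of different litters by their number. In C57BL/6 WT the same genes had log2 fold changes of 0.26 ± 0.11, 0.13 ± 0.09 and 0.05 ± 0.08 and were not called, but without WT replicate 1 at E12.5 Chd9 (0.46, adjusted p = 0.000737) and Chd8 (0.28, adjusted p = 0.00693) were called there too. Chd9 was also called without E15.5 WT replicate 3 (0.30, adjusted p = 0.0452). In FVBxBALB/c WT, Chd6 stood at -0.24 ± 0.20 and was called without E12.5 WT replicate 4 (-0.42, adjusted p = 0.0496), and with Tg(Kat6b) replicate 1 of that age left out too (adjusted p = 0.00543). The difference of the age effect between labelled KO and WT was not called for any of the 3 (adjusted p of 1 each, edgeR). Chd2 was not called in any genotype, with log2 fold changes between -0.16 and 0.12.

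**Figure D4:**
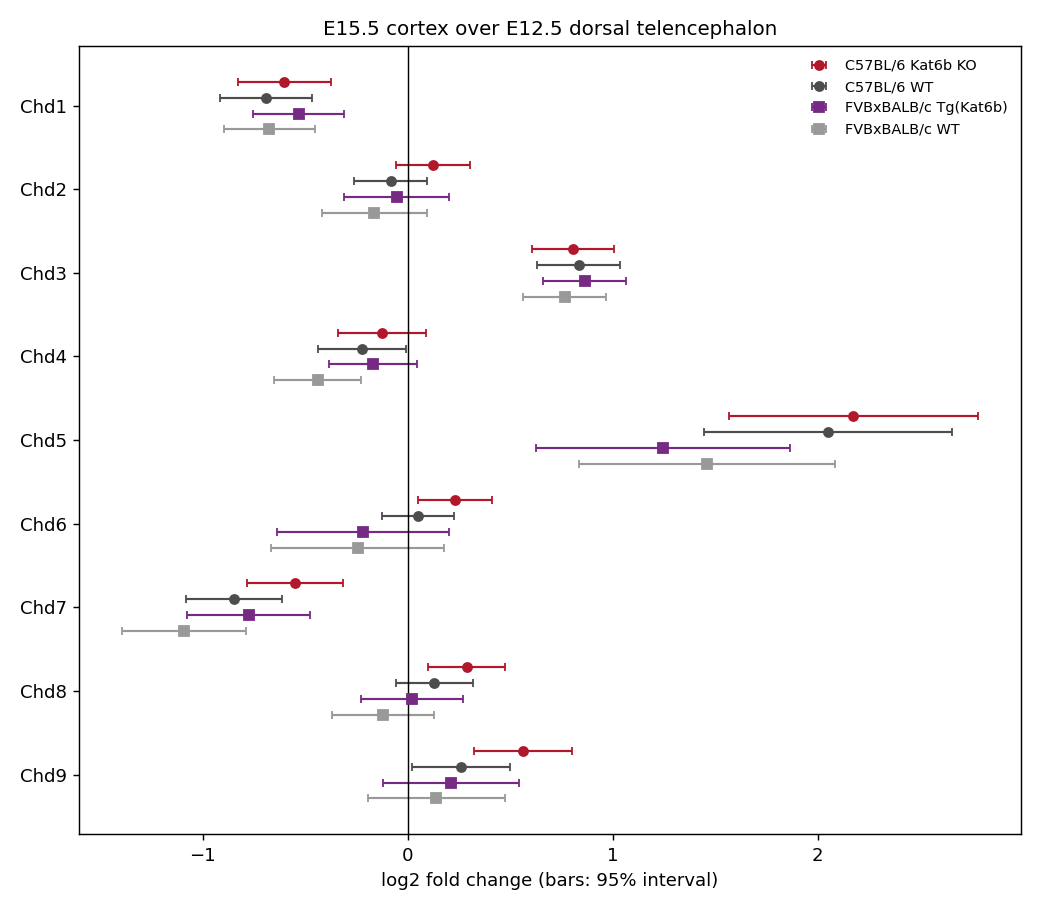
Log2 fold changes of E15.5 over E12.5 for each CHD gene in 4 genotypes, with 95% intervals from the edgeR model. Chd3 and Chd5 lie right of 0 and Chd1 and Chd7 left of 0 in all 4 genotypes, and the intervals of Chd2 span 0 in all 4.

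Partners of the family were followed from lists of 12 NuRD subunits, 4 proteins that join CHD4 in the ChAHP complex, 17 other ATPases of the SNF2 type and 8 accessory subunits of the ISWI remodellers. All 41 genes passed the filter. In C57BL/6 WT, 1 NuRD partner rose with age, 5 fell and 6 were not called, and the median log2 fold change was -0.19, against -0.02 over all genes tested. Those named by rank of p were Hdac1 (-0.80 ± 0.08), a deacetylase of the complex, the histone chaperones Rbbp7 (-0.58 ± 0.08) and Rbbp4 (-0.41 ± 0.09), and Gatad2a (-0.47 ± 0.11), which bridges the CHD motor to the complex. Of the ChAHP partners, the heterochromatin proteins Cbx5 (-0.88 ± 0.11), Cbx1 (-0.63 ± 0.07) and Cbx3 (-0.34 ± 0.11) fell and the DNA-binding Adnp rose (0.16 ± 0.06). The other ATPases held the largest changes: Smarca2, an alternative motor of the BAF complex, rose by 1.53 ± 0.10, while Hells (-1.74 ± 0.18) and Rad54l (-1.60 ± 0.11), known from DNA methylation and recombination repair, fell, as did the ISWI motor Smarca5 (-0.80 ± 0.08). In all, 3 of those 17 rose and 8 fell, where 28.6% of all genes were called higher and 28.2% lower, and 6 of the 8 ISWI subunits fell with none called higher, among them Baz1a (-1.03 ± 0.15), Cecr2 (-0.72 ± 0.13) and Hmgxb4 (-0.33 ± 0.06). FVBxBALB/c WT gave 2 NuRD partners higher and 3 lower, 3 ChAHP partners lower, 1 other ATPase higher and 7 lower, and 5 ISWI subunits lower, where 25.1% of all genes were called in each direction. Of the partners named here, Rbbp4 (-0.11, edgeR adjusted p = 0.445) and Adnp (0.04, adjusted p = 0.703) were not called in FVBxBALB/c WT. Gatad2a (-0.06, adjusted p = 0.671), Cbx3 and Adnp were not called in Tg(Kat6b), nor was Cbx3 in labelled KO. None of the 41 partners was called in any of the 4 genotype comparisons (edgeR).

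The KO question was whether loss of Kat6b moved the CHD genes. In labelled KO against WT, none of the 9 members was called at E12.5 or E15.5 by edgeR, and none by DESeq2. Over all genes, 0.00620% were called at E12.5 and 0% at E15.5, where 2.83% had an unadjusted p under 0.05 and DESeq2 called 7 genes. An unadjusted p under 0.05 was found for 3 members at E12.5, where 5.22% of all genes had one, and for 0 at E15.5. At E12.5, 7 of 9 values were below 0 and the median log2 fold change was -0.18, against -0.01 over all genes. Without WT replicate 1, the only WT library of its litter, 6 values were below 0, the median was -0.08, and the 9 values ran from -0.15 (Chd5) to 0.07 (Chd4). Chd7 had 19.9, 19.5 and 16.8 RPKM in KO, against 29.7, 19.5 and 20.03 in WT, a log2 fold change of -0.31 ± 0.13 (unadjusted p = 0.024, adjusted p = 0.881). Chd2 had 12.8, 14.1 and 13.0 RPKM in KO, against 18.2, 14.3 and 14.1 in WT, with groups that did not overlap, as for 3.91% of all genes in that direction. Its log2 fold change was -0.23 ± 0.10 (unadjusted p = 0.0254), and that of Chd9 was -0.28 ± 0.12 (unadjusted p = 0.0369). The high library in each case was WT replicate 1. Without it the values were -0.08 for Chd7, -0.10 for Chd2 and -0.08 for Chd9, with adjusted p of 0.956, 0.927 and 0.97. That library also had the lowest neuron marker sum of its group (2927, against 4170 and 3959 CPM in the others) and the highest meningeal sum (1222, against 385 and 524 CPM). Its sum of 8 ventral telencephalon and interneuron markers was the lowest too (232.6, against 837.4 and 621.5 CPM). The part of tissue makeup in these values was not tested.

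At E15.5 the KO values lay between -0.11 (Chd1) and 0.05 (Chd8) for 8 members, and the interval of Chd3 ran from -0.17 to 0.17. Chd5 stood at 0.27 ± 0.22 (95% interval -0.20 to 0.75, adjusted p = 1), with its highest values, 19.4 and 19.7 RPKM, in KO replicates 3 and 4. Without both libraries its value was 0.09, and with the pair summed as 1 library it was 0.21. They held 179 and 174 CPM of meningeal markers, against 19.1 to 99.7 in the other E15.5 libraries of that background, and replicate 3 is the library rich in Rn45s. No difference of the KO effect between the ages was called for any member, nor for any gene (0%). At an unadjusted p under 0.05 there were 0 members, and the values ran from -0.03 (Chd3) to 0.30 (Chd9).

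The gain of Kat6b was asked of the FVBxBALB/c embryos. In Tg(Kat6b) against WT, none of the 9 members was called by edgeR or DESeq2 at either age, while 0.0129% of all genes were called at each age. At an unadjusted p under 0.05 there were 0 members at either age, against 6.68% of all genes at E12.5 and 2.22% at E15.5. At E12.5 the values ran from -0.15 ± 0.10 (Chd4) to 0.08 ± 0.12 (Chd2), with a median of -0.0029, against -0.01 over all genes. The E15.5 values ran from -0.20 ± 0.29 (Chd5) to 0.20 ± 0.14 (Chd7), and 8 of 9 were above 0 with a median of 0.12, against 0.0028 over all genes. The widest 95% interval was that of Chd5 at E12.5, -0.60 to 0.62, and the narrowest that of Chd3 at both ages, -0.20 to 0.20 at E12.5 and -0.11 to 0.30 at E15.5. The difference of the Tg(Kat6b) effect between the ages was not called for any member, nor for any gene (0%), and 0 members had an unadjusted p under 0.05.

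A pair of E12.5 libraries moved the transgenic values at that age. Tg(Kat6b) replicate 1 was the highest of its group for all 9 members, and it had the highest neuron marker sum (5197 CPM) and the lowest meningeal and erythroid sums (207.5 and 1335 CPM). FVBxBALB/c WT replicate 4 had the lowest neuron sum (2874 CPM) and the highest meningeal and erythroid sums (1788 and 9066 CPM) of its group, and was the lowest WT library for 8 of the 9 members. Ventral telencephalon and interneuron markers summed to 950 CPM in the former library and 442 CPM in the latter, the highest and the lowest of their groups. Leaving both out was an alternative chosen after seeing the data, and since it drops the highest Tg(Kat6b) and the lowest WT library for Chd5, Chd6 and Chd8, the choice itself moves their values down and is no support for a change. In that fit Chd5 was called lower in Tg(Kat6b) at E12.5, with a log2 fold change of -0.62 ± 0.14 (adjusted p = 0.00964). Chd8 was called lower as well, at -0.31 ± 0.09 (adjusted p = 0.0366), and Chd6 was at -0.38 ± 0.12 (adjusted p = 0.0509). There 13.9% of all genes were called, and 7.47% were called lower. The remaining Tg(Kat6b) libraries had 3.30, 3.40 and 2.96 RPKM of Chd5, against 5.23, 5.10 and 4.60 RPKM in the remaining WT libraries. With Tg(Kat6b) replicate 1 alone left out, Chd5 stood at -0.39 (adjusted p = 0.507).

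**Figure D5:**
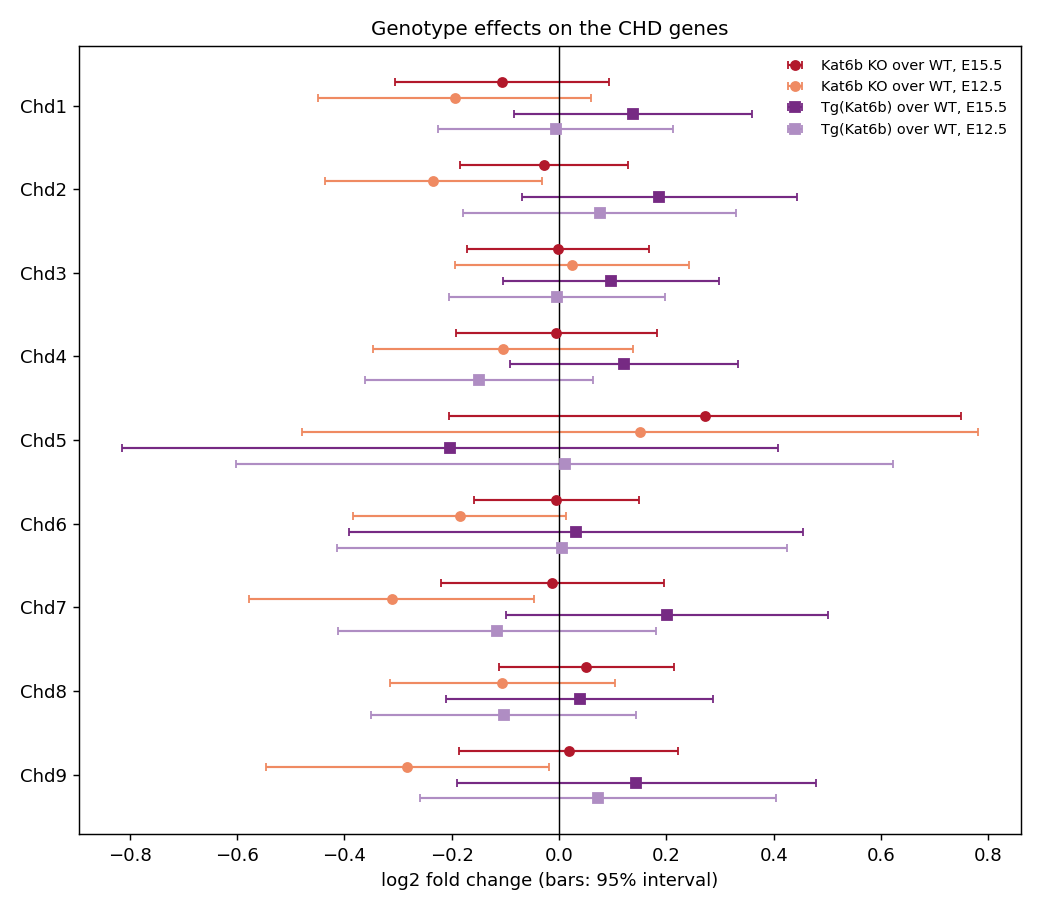
Log2 fold changes of the labelled KO and of Tg(Kat6b) over WT at each age for each CHD gene, with 95% intervals from the edgeR model of all libraries of a background. The intervals of Chd2, Chd7 and Chd9 in KO at E12.5 lie left of 0 before adjustment over all genes, and the remaining intervals span 0.

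WT embryos of both backgrounds were compared as a further description, in which the sequencing batch cannot be told apart from the background. In FVBxBALB/c WT against C57BL/6 WT at E12.5, all 9 members were above 0 with a median log2 fold change of 0.30, against 0.01 over all genes, and 2 were called higher, where 12.8% of all genes were called and 5.59% called higher. Chd4 had 132, 119, 165 and 133 RPKM in FVBxBALB/c WT, against 124, 89.6 and 89.6 in C57BL/6 WT, a log2 fold change of 0.44 ± 0.11 (adjusted p = 0.0075). Chd8 had 31.4, 29.2, 36.4 and 26.1 RPKM, against 28.6, 22.7 and 20.9 in C57BL/6 WT (0.36 ± 0.11, adjusted p = 0.0351). The groups overlapped for both through C57BL/6 WT replicate 1, without which 5 members were called, as they were without FVBxBALB/c WT replicate 4. No member was called without C57BL/6 WT replicate 3 or 4. The number of all genes called moved as well, from 859 to 3323 with 1 library left out at a time, against 2095 with none left out. Chd8 was not called without FVBxBALB/c WT replicate 1 or 3 (adjusted p = 0.0727 and 0.157), and DESeq2 called Chd1 as a further member. At E15.5, Chd1 was called higher, where 25.3% of all genes were called and 13.9% called higher, with 15.98, 15.8, 12.2 and 13.4 RPKM in FVBxBALB/c WT, against 11.5, 11.7, 10.2, 11.5 and 11.3 in C57BL/6 WT (0.36 ± 0.10, adjusted p = 0.00998). It was not called without FVBxBALB/c WT replicate 1 (adjusted p = 0.0564). Chd2 was called as well without FVBxBALB/c WT replicate 3 or 4 (adjusted p = 0.024 and 0.0433), and Chd4 without C57BL/6 WT replicate 4 (adjusted p = 0.0421). The age effect of WT differed between the backgrounds for none of the 9 members by edgeR or DESeq2, with 0 at an unadjusted p under 0.05 and 0.0305% of all genes called, and for Chd5 the difference was -0.57 ± 0.42.

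The 5' end of Chd2 overlaps the 3' end of a long noncoding RNA gene, listed in the files as 1810026B05Rik and in RefSeq as Chaserr, which in mice is known to restrain Chd2 in cis. It was looked up after the values of Chd2 were seen. Chaserr lies upstream on the same strand at chr7:73539798-73558395, and how the counting treated the shared bases is not given in the sources used here. Chaserr held 34395 counts over all libraries, 28.8% of those of Chd2 (119242). It averaged 44.2 ± 4.71 CPM in KO and 37.7 ± 5.00 in WT at C57BL/6 E12.5 (n = 3 each), with a log2 fold change of 0.22 ± 0.12 that was not called (adjusted p = 0.881). It was not called with age in any genotype either. Its level was called higher in FVBxBALB/c WT than in C57BL/6 WT at both ages, by 0.35 ± 0.11 and 0.40 ± 0.10 on the log2 scale.

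The genes whose log2 CPM ran most like each member over the 32 libraries, after the mean of each background was taken off, were ranked among 15448 genes. All points share the split between ages, and long genes recur: the median length of the 27 genes picked by this rule was 8965 bases, against 2842.5 bases over the genes ranked. For Chd1 they were Knl1 (Pearson r = 0.99), a kinetochore gene, Aspm (0.98), a spindle gene of neural progenitors, and Atad2 (0.98). For Chd5 they were Agap2 (0.99), Syt1 (0.99), the calcium sensor of synaptic vesicles, and Sptbn4 (0.99), a spectrin of axons. Chd3 ran with Hivep2, Pde4d and Sncaip (0.98 each), and Chd7 with Nup160, Nedd4 and Mpdz (0.97 each). The rest had looser neighbours, among them the acetyltransferase genes Kat6a for Chd2 (0.85) and Ep300 for Chd6 (0.95), Igf2r for Chd4 (0.91), Fryl for Chd8 (0.95) and Lyst for Chd9 (0.95).

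With group means taken off, pairs of members still ran together within groups over the 32 libraries. Chd1 and Chd7 had a Pearson r of 0.88, Chd6 and Chd8 of 0.86, and Chd2 and Chd7 of 0.86. Chd5 stood apart, with r of -0.20 with Chd1, -0.19 with Chd4 and 0.03 with Chd7, and up to 0.52 with Chd3. These values are descriptions, since the members share each library's tissue makeup and depth.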

How the data were processed

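Per the labels, total RNA was purified on RNeasy columns, libraries were made with a TruSeq kit and both ends were read over 66 bases on a NextSeq500. Per the submitters' processing notes, the authors used bcl2fastq and featureCounts with mm10; aligner, annotation and strand setting: not given in the sources used here. The authors deposited whole-number counts for each gene, not normalized, beside a gene length. Each file had 27179 rows, and 848 without a gene name (0.305 to 2% of counts) were left out. R 4.3.3 and edgeR 4.0.16 were used, with limma 3.58.1. Genes were kept by filterByExpr (minimum count 10, minimum total 15) and libraries were scaled by TMM. A robust quasi-likelihood model per background (12 residual degrees of freedom; 16118 genes in C57BL/6, 15556 in FVBxBALB/c) gave the genotype and age tests, and a model over all libraries (24 degrees of freedom, 16399 genes) the tests between backgrounds. The SE of a log2 fold change was taken as its size over the root of F. All tests are 2-sided, adjusted by Benjamini-Hochberg over all genes tested, and called below 0.05. Intervals are 95% intervals. CPM and RPKM were computed from the counts with scaling factors over all 32 libraries. Alternatives were median-of-ratios scaling, no count filter, DESeq2 1.42.0, fits of only the groups compared, blocks and left-out libraries. The members and lists were chosen with earlier results of these data known. Named were all members, Kat6b and up to 4 partners per list by smallest p with age in C57BL/6 WT. Of the 3 like genes picked per member, all were named for Chd1, Chd3, Chd5 and Chd7, and the closest 1 for each other member. Per the labels, same-numbered C57BL/6 libraries of an age are littermates, so the numbers pair them at E15.5, while at E12.5 replicates 3 and 4 of both genotypes share 1 litter, for which a litter block was run; correlations of their deviations from the group means were -0.11 to 0.37 at E15.5 and -0.35 to 0.38 at E12.5. No pair of libraries agreed within sampling noise. The labels number the C57BL/6 embryos but give no embryo or litter for FVBxBALB/c, where p-values measure only the spread between samples. At C57BL/6 E12.5 the 3 libraries of each genotype came from 2 litters. The tests with age and between backgrounds treat those libraries as independent.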

Additional observations from a re-analysis of the deposited data

Results flagged for a closer look

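In groups of 4 or 5 libraries, 7 of 54 gene and group pairs held a library set apart from its group by Dixon's test at 95%, where chance gives about 1 in 20. The pairs are not independent, since members share libraries and ran together within groups, so this count does not measure an excess. Of these, 5 were in Tg(Kat6b) replicate 1 at E12.5, which stood high for Chd1 (197 CPM), Chd4 (931 CPM), Chd5 (68.9 CPM), Chd7 (288 CPM) and Chd9 (161 CPM). The same library held the highest cortical neuron marker sum and the lowest meningeal and erythroid sums of its group, whose part in these levels was not tested. Chd4 was high in the labelled KO replicate 5 at E15.5 (585 CPM), a library whose column header names an E12.5 sample and whose label gives dorsal telencephalon as the tissue. That library lay at 57.5 on the first principal component, among the E15.5 libraries. WT replicate 5, whose header also names an E12.5 sample, had 570 CPM of Chd4 and was not set apart. The cause of the high level was not tested. Chd1 was low in C57BL/6 WT replicate 3 at E15.5 (80.8 CPM).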

How the results depend on the processing

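Chd3, Chd5, Chd1 and Chd7 kept their direction and their call with age in the 4 genotypes under every alternative run. No member was called between genotypes under any alternative, except Chd5 and Chd8 with E12.5 Tg(Kat6b) replicate 1 and WT replicate 4 both left out, which gave 2 members and 2146 genes called at E12.5 and 250 genes for the difference between ages. DESeq2 called 5 genes in KO at E12.5 (edgeR 1), 7 in KO at E15.5 (edgeR 0), 1 for the KO effect between ages (edgeR 0), 6 in Tg(Kat6b) at E12.5 (edgeR 2), 7 at E15.5 (edgeR 2), 1 for the Tg(Kat6b) effect between ages (edgeR 0) and 16 for the WT age effect between backgrounds (edgeR 5). Fits of only the groups compared called 0 genes in KO at E12.5, 2 in KO at E15.5 and 4 in Tg(Kat6b) at E15.5. With the replicate block, 0 members and 0 genes were called in KO at either age, and 0 members and 3 genes in Tg(Kat6b) at either age. The litter block gave 0 genes in KO at E12.5 and 1 at E15.5. The replicate block across ages gave 6 members in KO, where Chd6 lost its call, 4 in C57BL/6 WT, 4 in Tg(Kat6b) and 5 in FVBxBALB/c WT, and it changed no other call. Without that block, 56.4%, 56.8%, 46.3% and 50.1% of all genes were called with age, in the same order. In C57BL/6 a shared number joins embryos of different litters across ages, so that block tests no pairing there. In FVBxBALB/c a shared number is not known to mean a shared litter, and correlations of same-numbered libraries ran from -0.11 to 0.56. Without both C57BL/6 replicates 5 at E15.5, 2 genes were called for the WT age effect between backgrounds. Leaving out 1 library at a time gave 0 to 2 genes in KO at E12.5. Between backgrounds it gave 0 to 5 members and 859 to 3323 genes at E12.5, and 0 to 2 members and 2918 to 4059 genes at E15.5. For the WT age effect between backgrounds it gave 1 to 7 genes.

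Small log2 fold changes that were not called turned sign in some settings, and the cause was not tested. The ranges with 1 library left out at a time follow. For KO against WT at E12.5 they ran, by gene, Chd1 from -0.31 to 0.0022, Chd3 from -0.046 to 0.12, Chd4 from -0.18 to 0.072, Chd5 from -0.20 to 0.47, Chd8 from -0.20 to 0.041. For KO against WT at E15.5 they ran Chd2 from -0.057 to 0.011, Chd3 from -0.048 to 0.023, Chd4 from -0.050 to 0.032, Chd6 from -0.043 to 0.021, Chd7 from -0.050 to 0.016, Chd9 from -0.018 to 0.066. For the KO effect between ages they ran Chd1 from -0.11 to 0.20, Chd3 from -0.12 to 0.044, Chd4 from -0.077 to 0.18, Chd5 from -0.20 to 0.48. For Tg(Kat6b) against WT at E12.5 they ran Chd1 from -0.055 to 0.081, Chd3 from -0.068 to 0.096, Chd5 from -0.39 to 0.14, Chd6 from -0.20 to 0.13, Chd7 from -0.22 to 7.6e-05, Chd9 from -0.051 to 0.18. For Tg(Kat6b) against WT at E15.5 they ran Chd6 from -0.083 to 0.12, Chd8 from -0.024 to 0.062. For the Tg(Kat6b) effect between ages they ran Chd3 from -0.00012 to 0.16, Chd5 from -0.35 to 0.18, Chd6 from -0.10 to 0.23, Chd9 from -0.054 to 0.20. For age in C57BL/6 WT they ran Chd2 from -0.14 to 0.050, Chd6 from -0.016 to 0.16. For age in Tg(Kat6b) they ran Chd2 from -0.12 to 0.0098, Chd8 from -0.040 to 0.15. For FVBxBALB/c against C57BL/6 WT at E12.5 they ran Chd3 from -0.016 to 0.16. For FVBxBALB/c against C57BL/6 WT at E15.5 they ran Chd3 from -0.0088 to 0.058, Chd6 from -0.073 to 0.11, Chd7 from -0.038 to 0.13, Chd9 from -0.026 to 0.15. For the WT age effect between backgrounds they ran Chd1 from -0.16 to 0.13, Chd2 from -0.19 to 0.028, Chd3 from -0.14 to 0.049, Chd9 from -0.30 to 0.0095. Without KO replicates 3 and 4 at E15.5, KO against WT at that age gave 0.010 for Chd2, 0.060 for Chd3, 0.012 for Chd4 and 0.023 for Chd6. With them summed as 1 library it gave 0.022 for Chd3, 0.0019 for Chd4 and 0.0039 for Chd6. The KO effect between ages without them was 0.033 for Chd3 and -0.060 for Chd5. Chd6 between WT backgrounds at E15.5 (0.0067) was -0.0096 without those libraries, -0.0078 without both replicates 5, -0.0096 with no count filter, -0.0036 with median-of-ratios scaling and -0.0039 in DESeq2. Without both replicates 5, Chd9 in KO at E15.5 was -0.042. With no count filter, Chd6 in Tg(Kat6b) at E12.5 was -0.00067. With the replicate block, Chd3 was 0.0018 and Chd5 -0.014 there. Without Tg(Kat6b) replicate 1 and WT replicate 4 at E12.5, that comparison gave -0.049 for Chd2, -0.62 for Chd5, -0.38 for Chd6 and -0.13 for Chd9, the Tg(Kat6b) effect between ages was 0.42 for Chd5, and age in Tg(Kat6b) was 0.0096 for Chd2. Scaling by plain totals moved 5 of 72 group levels by more than 1 SD.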
